A study of Mus musculus with 40 samples.

Results

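The 36 genes described here are the ATF4 arm of the integrated stress response as it reads out in mRNA. They are the transcription factors Atf4, Atf5, Ddit3, Cebpb, Cebpg and Nupr1, the feedback and signalling genes Trib3, Ppp1r15a, Sesn2, Eif4ebp1 and Chac1, and the amino acid genes that ATF4 is known to act on, namely 6 enzymes of serine and one-carbon metabolism, the asparagine and cysteine enzymes Asns and Cth, 8 amino acid transporters and 9 cytosolic tRNA synthetases. They were taken as a list of names, and all 36 were found among the 51789 genes of the count table. They were followed through 40 libraries of cultured mouse melanoma cells, 2 for each of 20 groups, which ask what loss or forced expression of the clock factor Bmal1, and knockdown of the myosin gene Myh9, do to melanoma cells.

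The cells come from the lines B16-F10, YUMM2.1 and YUMM1.7. B16-F10, a pigmented mouse melanoma line, was compared as a control clone (Ctrl) and a Bmal1-null clone (Bmal1 KO). YUMM2.1 and YUMM1.7 are mouse melanoma lines with mutant Braf, and YUMM2.1 also carries a stabilized beta-catenin allele. YUMM2.1 was transduced with an empty vector (EV), with wild-type Bmal1 (WT) or with dHLH, and GFP-positive cells were sorted. dHLH is a Bmal1 that lacks the basic helix-loop-helix domain through which it binds DNA. The YUMM1.7 libraries bear the corresponding 3 labels, and the study's methods do not describe how those cells were made. The same 3 vectors were put into aC3, a Bmal1-null clone of YUMM2.1, which gave YUMM2.1KO-EV, YUMM2.1KO-WT and YUMM2.1KO-dHLH. YUMM2.1-EV, -WT and -dHLH cells keep their own Bmal1, so WT and dHLH add to it there. A further 9 groups are YUMM2.1 EV, WT or dHLH cells that also carry a lentiviral short hairpin under puromycin, either the control shNC or 1 of the Myh9 hairpins shMyh9#2 and shMyh9#4. Each knockout group rests on 1 clone, so the loss of Bmal1 and the clone cannot be told apart there. The duplicate libraries of a group are taken as biological duplicates from the study's description. The p-values rest on the spread between duplicates, pooled over all groups fitted together and shared across genes.

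In the integrated stress response, kinases that sense amino acid shortage, misfolded proteins, viral RNA or heme deficiency phosphorylate the translation factor eIF2. Translation of most mRNAs then falls, while that of Atf4 mRNA rises, and the ATF4 protein, often paired with a C/EBP protein, switches on genes for amino acid supply, tRNA charging and, under lasting stress, cell death. Much of the control of ATF4 is therefore on its protein, which these mRNA data do not measure. The study did blot such factors in YUMM2.1 cells. It counted ATF4, ATF5 and ATF6 among those that loss of Myh9 raised, in mRNA or in protein. In bulk RNA from cultures, a change in the share of cells in a state and a change in RNA per cell cannot be told apart.

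The DNA element tied to this program is the C/EBP-ATF response element, whose core reads TGATGNAA. It was searched on both strands of the 300 bases around each RefSeq gene start (250 before and 50 after, GRCm38.p6), together with CACGTG, the E-box that Bmal1 and Clock bind. Of the 36 genes, 28 had a promoter in the table, and 10 of these (35.7%) held TGATGNAA, against 1219 of 27025 genes (4.51%) with a promoter. CACGTG was in 4 of the 28 (14.3%, against 8.09%). The 2 motifs overlapped in 3 of 66 promoters that held both. The matches printed are those in the 7 genes that also rose with dHLH in YUMM2.1, so they were picked by that call. They show the same letters in a regulator, feedback genes, an enzyme, a transporter and tRNA synthetases. Each is 30 bases from RefSeq, read on the strand that spells the motif, with the motif in capitals.
Nupr1, chr7:126625562-126625591, plus strand: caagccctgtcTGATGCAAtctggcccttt
Trib3, chr2:152344028-152344057, plus strand: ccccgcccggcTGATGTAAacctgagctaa
Chac1, chr2:119351038-119351067, minus strand: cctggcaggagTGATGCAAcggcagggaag
Asns, chr6:7693214-7693243, minus strand: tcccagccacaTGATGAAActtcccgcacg
Slc1a4, chr11:20332699-20332728, plus strand: caggctggagaTGATGCAAcgcaggaggca
Iars, chr13:49682126-49682155, minus strand: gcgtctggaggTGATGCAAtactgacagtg
Yars, chr4:129189895-129189924, plus strand: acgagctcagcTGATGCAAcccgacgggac
The open base of the motif was C in Nupr1, Chac1, Slc1a4, Iars and Yars, T in Trib3 and A in Asns. The matches lay between 193 bases before the start, in Chac1, and 14 bases after it, in Trib3. Aars, Gars and Tars held the element as well, Aars at 2 places, and were not called with dHLH in YUMM2.1. Atf4, Ddit3, Mthfd2, Sars and Eprs rose there without a match in the promoters searched. Whether the element goes with the rise was not tested. Nupr1, Aars, Tars and Iars held CACGTG too. A match describes letters and is not a measured binding site. Eif4ebp1, Aldh1l2, Cth, Slc7a5, Slc7a3, Slc1a5, Wars and Nars were not matched in the table.

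Libraries held between 3643332 and 22970049 counts (median 10021164.5). Levels are given as CPM, a gene's counts relative to its library's total, with TMM scaling over all 40 libraries, the value of library 1 before that of library 2. Of the pigment cell markers Sox10, Mitf, Pmel, Tyr, Tyrp1, Dct and Mlana, 7 of 7 reached 1 CPM in B16-F10 (summed 19764 to 26052 CPM). In YUMM1.7, in YUMM2.1 without hairpin and in YUMM2.1KO only Sox10 and Mitf did, and Tyrp1, Dct and Mlana were at 0 in every one of these libraries. Summed leukocyte markers stayed at or below 3.95 CPM, keratinocyte markers at or below 0.486 CPM and endothelial markers between 4.201 and 26.4 CPM. Myh9, the hairpin target, was lower in all 6 comparisons with shNC, with log2 fold changes of -1.51, -2.04 and -1.69 for shMyh9#2 in EV, WT and dHLH cells and of -0.52, -0.93 and -0.42 for shMyh9#4. Arntl, the gene of Bmal1, stood at 15.2 and 10.7 CPM in B16-F10 Ctrl and 13.3 and 11.5 CPM in Bmal1 KO, and a 3′ tag count does not by itself check a knockout. In YUMM2.1 Arntl stood at 15.9 and 13.9 CPM with EV, 13.9 and 18.3 CPM with WT and 51.1 and 35.4 CPM with dHLH. These counts do not measure Bmal1 protein, for which the study reported a modest increase with WT. A pair of labels is in doubt. When the study's own supplementary columns for YUMM2.1 were matched to the libraries, the column for the second EV library matched the library labelled YUMM2.1-WT 1, and the column for the first WT library matched the library labelled YUMM2.1-EV 2. Results that use the library labelled YUMM2.1-EV 2 or YUMM2.1-WT 1 are therefore given as labelled and, where it matters, with the pair exchanged.

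**Figure D1:**
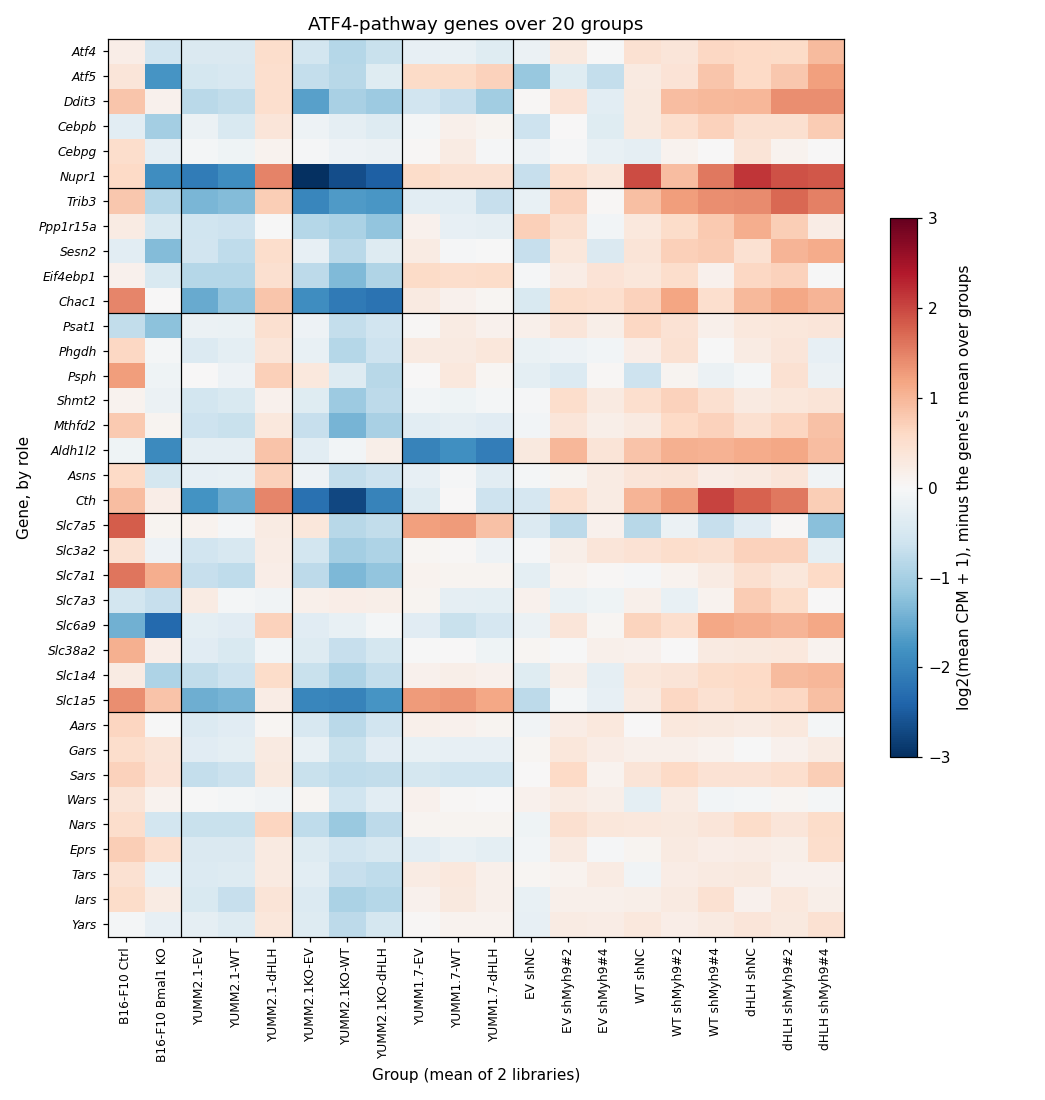
Level of the 36 genes in the 20 groups. Rows are genes ordered by role, columns are groups, and color is log2(mean CPM + 1) of 2 libraries minus the gene's mean over the groups. The B16-F10 Ctrl and dHLH hairpin columns are the warmest and the YUMM2.1KO columns the coolest.

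Across the 20 groups many of the genes moved together, though not all. The highest group mean lay in a dHLH hairpin group for 17 of the 36 genes and in B16-F10 Ctrl for 14, and the lowest lay in a YUMM2.1KO group for 26, of which 19 were YUMM2.1KO-WT. Atf4 itself, the transcription factor at the head of the list, ranged 3.51-fold, from a mean of 238 CPM in YUMM2.1KO-WT to 834 CPM in dHLH shMyh9#4. Atf5, a related factor under ATF4 control, ranged 8.25-fold, and Ddit3, which encodes the pro-apoptotic factor CHOP, 8.47-fold. Over the 20 group means the Spearman correlation with Atf4 was above 0.8 for 12 of the other 35 genes and highest for Trib3 and Slc1a4 (0.96 for both), with a median of 0.77. It was under 0.5 for 6, among them Wars (0.02), Slc7a3 (0.04) and Psph (0.14). It was lowest for Slc7a5 (−0.23), which encodes LAT1, the light chain of a leucine transporter. The correlations of genes outside the list with Atf4 are not given. These 20 points share cell lines and runs and serve as a description. Slc7a3, a cationic amino acid transporter, stayed at or below 3.31 CPM in every library, and its values rest on few reads.

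**Figure D2:**
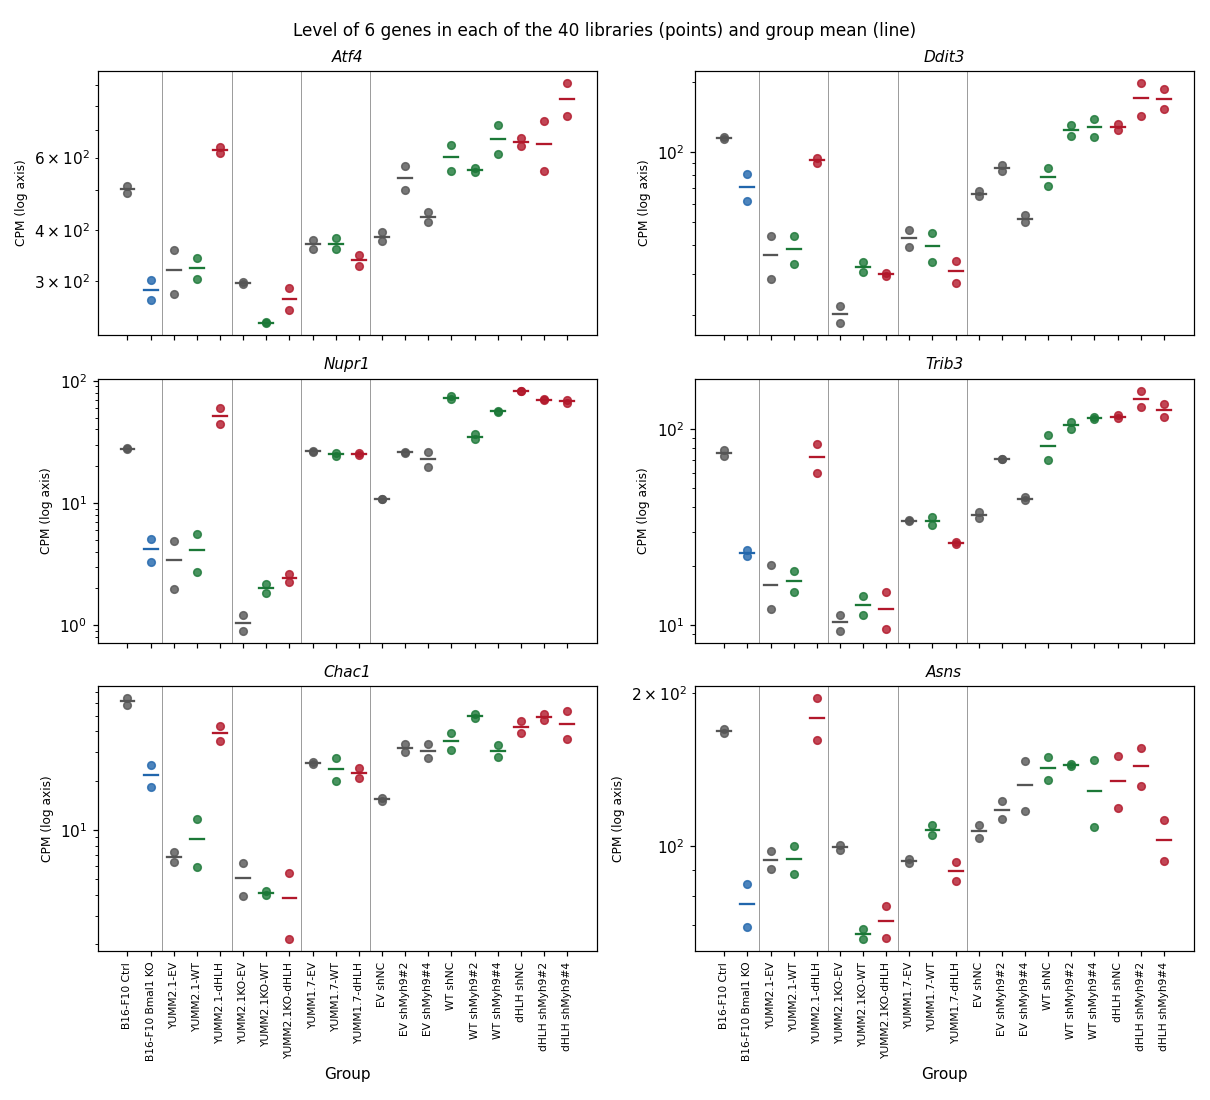
CPM of Atf4, Ddit3, Nupr1, Trib3, Chac1 and Asns in each of the 40 libraries on a log axis. Points are libraries (grey EV or Ctrl, blue B16-F10 Bmal1 KO, green WT, red dHLH) and lines are group means. Nupr1 is at 1.99 and 4.85 CPM in YUMM2.1-EV and at 59.6 and 43.9 CPM in YUMM2.1-dHLH.

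Among the Bmal1 comparisons without a hairpin, dHLH in YUMM2.1 gave the most calls. There 24 of the 36 genes rose above YUMM2.1-EV and 0 fell below it by edgeR's quasi-likelihood test at a Benjamini-Hochberg adjusted p under 0.05 over all genes tested, while 6.51% of the 14323 genes tested were higher and 6.72% lower. The median log2 fold change was 0.89 over the 36 genes and -0.01 over all genes tested. Atf4 mRNA stood at 280.3 and 358 CPM in EV and 616 and 637 CPM in dHLH (log2 fold change 0.98 ± 0.15 SE, adjusted p = 0.00952). Both dHLH libraries lay above both EV libraries. Ddit3 was 28.4 and 43.8 CPM against 90.2 and 94.2 CPM (log2 fold change 1.36 ± 0.23 SE, adjusted p = 0.0127). Nupr1, a small stress-induced chromatin protein, went from 1.99 and 4.85 CPM to 59.6 and 43.9 CPM, a 15.5-fold rise (log2 fold change 3.95 ± 0.47 SE, adjusted p = 0.00416). Atf5 rose as well (log2 fold change 1.05). Cebpb and Cebpg, C/EBP partners of ATF4, had log2 fold changes of 0.62 and 0.18 that did not pass the test.

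Among the feedback genes, 4 of 5 rose in YUMM2.1-dHLH. Trib3, a pseudokinase that ATF4 induces and that restrains it, was 12.04 and 20.2 CPM in EV and 84.6 and 59.7 CPM in dHLH (log2 fold change 2.18 ± 0.29 SE, adjusted p = 0.00619). Chac1, which degrades glutathione, was 6.39 and 7.34 CPM against 43.1 and 34.7 CPM (log2 fold change 2.51 ± 0.32 SE, adjusted p = 0.00542). In both genes each dHLH library lay above both EV libraries. Eif4ebp1, a brake on cap-dependent translation, and Sesn2, an inhibitor of mTORC1, rose by 1.34 and 1.15 on the log2 scale. Ppp1r15a, the phosphatase subunit GADD34 that reverses eIF2 phosphorylation, had 6.48 and 5.61 CPM in EV and 13.2 and 5.95 CPM in dHLH and was not called (log2 fold change 0.67).

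The amino acid genes followed in YUMM2.1-dHLH. Of the serine and one-carbon enzymes, Aldh1l2 and Mthfd2, both mitochondrial folate enzymes, rose by 1.15 and 0.95 on the log2 scale, and Phgdh and Psat1, the first enzymes of serine synthesis, by 0.79 and 0.67. Psph and Shmt2 did not pass the test (0.75 and 0.68), although Psph was higher in dHLH within each library number (22.8 to 39.2 CPM and 11.5 to 18.8 CPM). Asns, asparagine synthetase, was 90.3 and 97.7 CPM in EV and 195 and 162 CPM in dHLH (log2 fold change 0.93 ± 0.14 SE, adjusted p = 0.00934). Cth, which makes cysteine from cystathionine, was at 0.747 and 1.08 CPM in EV and 26.4 and 8.32 CPM in dHLH (log2 fold change 4.26 ± 0.66 SE, adjusted p = 0.00952), with a wide gap between the dHLH libraries. Of 8 transporters 5 rose. Slc1a5, a glutamine carrier, had 5.65 and 11.4 CPM in EV and 31.2 and 28.4 CPM in dHLH (log2 fold change 1.82 ± 0.33 SE, adjusted p = 0.0162). The neutral amino acid carrier Slc1a4, the glycine carrier Slc6a9, the arginine carrier Slc7a1 and Slc3a2, the heavy chain that partners LAT1, rose by 1.32, 1.02, 0.92 and 0.81. Slc7a5 differed between libraries 1 and 2 in both groups (32.9 and 15.6 CPM in EV, 40.1 and 13.7 CPM in dHLH) and was not called. Of the 9 tRNA synthetases, which charge tRNAs with their amino acids, Nars, Sars, Iars, Eprs and Yars rose, Nars the most (227 and 311 CPM in EV, 657 and 691 CPM in dHLH, log2 fold change 1.33 ± 0.19 SE, adjusted p = 0.00674). Aars, Gars, Tars and Wars did not pass (0.46, 0.60, 0.69 and -0.11).

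Libraries of the same number, as labelled, deviated together in these groups, and with the number as a block edgeR called 29 genes, all higher. The 5 added were Psph (log2 fold change 0.75 ± 0.23 SE, adjusted p = 0.0342), Shmt2, Aars, Gars and Tars. With the doubtful labels exchanged, the differences between libraries 1 and 2 labelled EV and labelled WT would both set EV against WT. Pairing and the label doubt cannot be told apart there, and pairing was not checked on exchanged labels. The count of 24 became 28 with the labels of YUMM2.1-EV 2 and YUMM2.1-WT 1 exchanged and 10, all of them among the 24, without the library labelled YUMM2.1-EV 1. In the same groups Sox10, a melanocyte lineage factor, went from 501 and 484 CPM in EV to 66.3 and 72.9 CPM in dHLH (log2 fold change -2.82 ± 0.16 SE, adjusted p = 6.21e-04), and 5 of 6 genes driven by Bmal1 and Clock (Nr1d1, Dbp, Nr1d2, Per3 and Tef) were lower. Their part in the difference in the ATF4 genes was not tested. In the neighboring arms of the stress response, of 14 endoplasmic reticulum chaperones and related genes controlled by ATF6 or XBP1, 0 were called by edgeR (2 at an unadjusted p under 0.05, 0 by DESeq2), with a median of 0.03. Of 17 mitochondrial tRNA synthetases 0 were called (0 at an unadjusted p under 0.05, 0 by DESeq2), with a median of 0.31. Of 17 other ATF4 targets tested, 11 rose and 0 fell, with Gdf15, a secreted stress cytokine, at 3 and 2 counts in EV and 181 and 72 counts in dHLH (adjusted p = 0.00261, with too few EV counts for a fold), and the amino acid enzymes Bcat1 and Pycr1 at 2.73 and 1.98 on the log2 scale. Eif2ak3, which encodes the eIF2 kinase PERK, fell by 1.18 on the log2 scale.

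**Figure D3:**
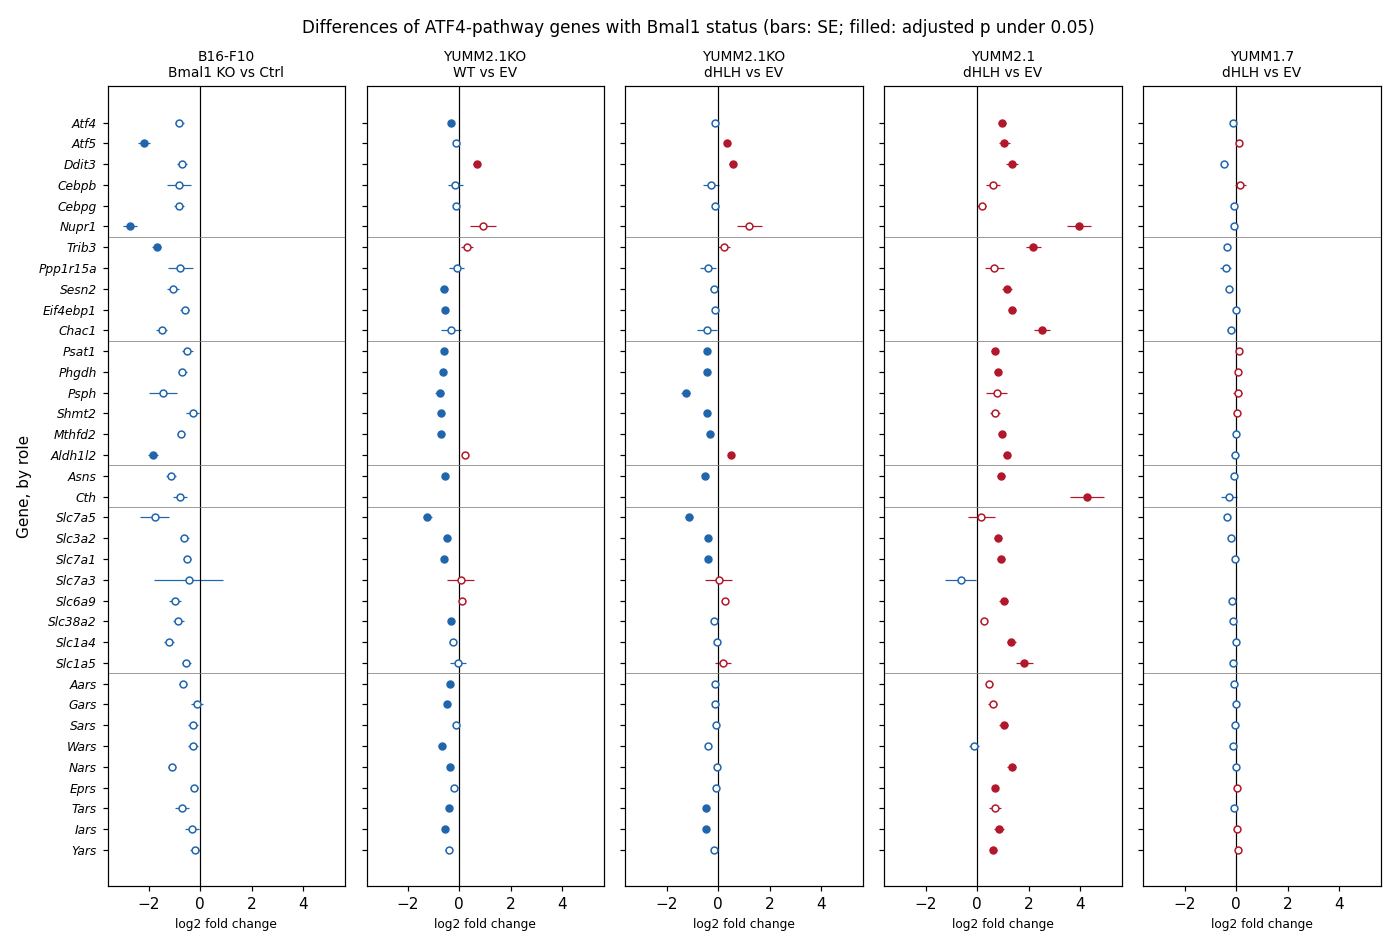
Log2 fold change ± SE of each gene in 5 comparisons (panels: B16-F10 Bmal1 KO against Ctrl, YUMM2.1KO-WT and YUMM2.1KO-dHLH against YUMM2.1KO-EV, YUMM2.1-dHLH against YUMM2.1-EV, YUMM1.7-dHLH against YUMM1.7-EV). Red is positive, blue negative and filled symbols have an adjusted p under 0.05. Filled red symbols number 24 in the YUMM2.1-dHLH panel and filled blue symbols 19 in the YUMM2.1KO-WT panel.

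As labelled, WT in YUMM2.1 gave no calls, in the list or over all genes tested. The study itself reported differentially expressed genes and an enriched mesenchymal transition signature for WT against EV in these cells. By edgeR 0 of 36 genes were called higher and 0 lower than in EV, 0 had an unadjusted p under 0.05 and DESeq2 called 0, while 0% of the 14323 genes tested were higher and 0% lower. Atf4 was 304 and 343 CPM in WT beside 280.3 and 358 CPM in EV, and Nupr1 2.74 and 5.59 CPM beside 1.99 and 4.85 CPM. As labelled, the ranges of both genes overlapped between the groups. With the labels of the doubtful pair exchanged, Atf4 would be 280.3 and 304 CPM in EV and 358 and 343 CPM in WT, and Nupr1 1.99 and 2.74 CPM and 4.85 and 5.59 CPM, with no overlap in either gene. The median log2 fold change of the 36 genes would be 0.21, against 0.00 over all genes, and 12 of 36 would have an unadjusted p under 0.05 (12.4% of all genes tested). None of the 36 would pass the adjusted threshold, which 101 of all 14323 genes would. As labelled, the log2 fold changes of the list lay between -0.52, in Slc7a3, and 0.58, in Cth.

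In the Bmal1-null clone, adding WT went with lower levels of the amino acid genes. Against YUMM2.1KO-EV, 19 of 35 genes tested were lower in YUMM2.1KO-WT and 1 was higher, while 4.92% of the 13790 genes tested were higher and 6.28% lower. The median log2 fold change was -0.34, against 0.01 over all genes. Cth, at 0 in both YUMM2.1KO-WT libraries and 0.268 and 0.556 CPM in YUMM2.1KO-EV, was left out by the filter on low counts. Atf4 fell modestly, from 296 and 299 CPM to 237 and 239 CPM (log2 fold change -0.32 ± 0.09 SE, adjusted p = 0.0262). The gene that rose was Ddit3, from 21.9 and 18.4 CPM to 30.4 and 33.8 CPM (log2 fold change 0.67 ± 0.13 SE, adjusted p = 0.00428). Both genes separated the groups with no overlap, in opposite directions.

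All 5 serine pathway genes other than Aldh1l2 fell in YUMM2.1KO-WT. Psph, the last enzyme of serine synthesis, went from 20.03 and 23.3 CPM to 12.5 and 13.1 CPM (log2 fold change -0.76 ± 0.17 SE, adjusted p = 0.00925). Shmt2, which moves a carbon from serine to folate in mitochondria, went from 141 and 151 CPM to 86.4 and 90.8 CPM (log2 fold change -0.73 ± 0.10 SE, adjusted p = 4.66e-04). In both genes each WT library lay below each EV library. Mthfd2 went from 159 and 171 CPM to 104 and 98.5 CPM and Phgdh from 144 and 150.5 CPM to 90.2 and 98.3 CPM, and with Psat1 they fell by 0.71, 0.65 and 0.57 on the log2 scale. Asns fell from 98.6 and 101 CPM to 65.8 and 68.7 CPM (log2 fold change -0.57 ± 0.10 SE, adjusted p = 0.00178). Slc7a5 had the largest fall of the list, from 25.6 and 31.5 CPM to 11.6 and 12.6 CPM (log2 fold change -1.24 ± 0.16 SE, adjusted p = 3.02e-04), and the carriers Slc7a1, Slc3a2 and Slc38a2 fell too. So did 6 of 9 tRNA synthetases (Wars, from 36.5 and 36.9 CPM to 22.1 and 23.6 CPM, Iars, Gars, Tars, Nars and Aars) and the signalling genes Sesn2 and Eif4ebp1. Nupr1 (log2 fold change 0.93), Trib3 (0.29), Chac1 (-0.31) and Atf5 (-0.13) were not called. Of the other ATF4 targets, 4 of 15 tested were higher, Fam129a, Ddit4, Vldlr and Herpud1, and Xpot, a tRNA exporter, was lower.

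Adding dHLH to the same clone also went with lower levels of amino acid genes. Against the same YUMM2.1KO-EV libraries, 11 of 35 genes were lower and 3 higher in YUMM2.1KO-dHLH (6.09% and 4.79% of all genes tested), with a median of -0.16 against 0.01 over all genes. Psph was at 8.83 and 9.46 CPM (log2 fold change -1.26 ± 0.17 SE, adjusted p = 7.13e-04), Slc7a5 at 13.5 and 12.5 CPM (log2 fold change -1.15 ± 0.16 SE, adjusted p = 7.35e-04) and Asns at 66.2 and 76.4 CPM (log2 fold change -0.50 ± 0.10 SE, adjusted p = 0.00505). In each of these genes both libraries lay below both YUMM2.1KO-EV libraries. Iars (from 40.3 and 47.01 CPM to 33.6 and 30.1 CPM), Tars, Psat1, Shmt2, Phgdh, Slc7a1, Slc3a2 and Mthfd2 were the others that fell. Ddit3 rose to 30.3 and 29.3 CPM (log2 fold change 0.55 ± 0.13 SE, adjusted p = 0.0148), Aldh1l2 from 82.1 and 76.8 CPM to 119.8 and 103 CPM (log2 fold change 0.48 ± 0.10 SE, adjusted p = 0.00839) and Atf5 by 0.35 on the log2 scale. Atf4, at 255 and 289 CPM, was not called (log2 fold change -0.14 ± 0.09 SE, adjusted p = 0.321). WT and dHLH were also compared with each other. Of 35 genes, 1 was lower in YUMM2.1KO-WT and 0 were higher (0.435% and 0.442% of all genes tested). It was Atf5, at 96.2 and 90.9 CPM with WT and 139.9 and 122 CPM with dHLH (log2 fold change -0.47 ± 0.10 SE, adjusted p = 0.0342), and it was not called without either YUMM2.1KO-WT library or without YUMM2.1KO-dHLH 1.

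Both counts against YUMM2.1KO-EV changed with the libraries in the fit. A single fit of all 40 libraries called 8 genes for WT, all lower, and 1 for dHLH, which was Aldh1l2 and higher, so none of the 11 lower calls with dHLH was made there. The cause was not tested. Without the library YUMM2.1KO-EV 2 the counts were 9 and 2, without YUMM2.1KO-WT 1 or 2 the first was 10 or 11, and without YUMM2.1KO-EV 1 or YUMM2.1KO-dHLH 1 the second was 7 or 8. Cytosolic folate and nucleotide genes fell in the same comparisons, 5 of 7 tested with WT and 5 of 7 with dHLH. The genes driven by Bmal1 and Clock went in opposite directions, 6 of 6 higher with WT and 3 of 6 lower with dHLH. Sox10 was 452 and 441 CPM with EV, 547 and 552 CPM with WT and 610.1 and 551 CPM with dHLH, higher in both by the same test. The part of these genes in the lower ATF4 genes was not tested.

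The dHLH effects in YUMM2.1 and in its Bmal1-null clone were set against each other directly. The log2 fold change of dHLH in YUMM2.1 minus that in YUMM2.1KO was positive and called for 27 of 36 genes and negative and called for 0 (5% and 6.55% of all genes tested), with a median of 1.12 against 0.00. For Atf4 the difference was 1.10 ± 0.18 SE (adjusted p = 6.80e-05), for Nupr1 2.74 ± 0.52 SE (adjusted p = 4.79e-04), and for Asns 1.41 ± 0.20 SE (adjusted p = 1.50e-05). The empty vector groups of the 2 backgrounds differed in 2 of 36 genes, lower in YUMM2.1KO-EV, and 0 were higher (2% and 0.475% of all genes tested). They were Nupr1, at 0.894 and 1.21 CPM beside 1.99 and 4.85 CPM (log2 fold change -1.65 ± 0.38 SE, adjusted p = 0.0120), and Ddit3, at 21.9 and 18.4 CPM beside 28.4 and 43.8 CPM (log2 fold change -0.84 ± 0.20 SE, adjusted p = 0.0144). Neither was called in a fit of these groups alone, or without YUMM2.1-EV 2 or either YUMM2.1KO-EV library.

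In YUMM1.7 no gene of the list was called. Slc7a3 did not pass the filter on low counts. For dHLH against EV edgeR called 0 of 35 genes higher and 0 lower, 8 had an unadjusted p under 0.05 and DESeq2 called 0, while 0.21% of the 13816 genes tested were higher and 0.42% lower. Atf4 was 379 and 359 CPM in EV and 327 and 348 CPM in dHLH, Trib3 34.2 and 33.99 CPM and 26.7 and 25.9 CPM, and Nupr1 26.3 and 26.8 CPM and 24.6 and 25.4 CPM. In all 3 genes the dHLH libraries lay below the EV libraries. In Atf5 they lay above, at 263 and 242 CPM in EV and 280.5 and 267 CPM in dHLH. How many genes of the list or of all genes separated in either direction is not given, so these values are not read as a change. All log2 fold changes were between -0.47, in Ddit3, and 0.17, in Cebpb. For WT edgeR called 0 higher and 0 lower of 35 (6 at an unadjusted p under 0.05, 1 by DESeq2), while 0.0434% of the 13816 genes tested were higher and 0.0941% lower, and the log2 fold changes were between -0.40 and 0.50. The test of the difference called 25 genes with a lower dHLH effect in YUMM1.7 than in YUMM2.1 and 0 with a higher one (5.38% and 4.04% of all genes tested). It was -4.05 ± 0.34 SE for Nupr1 (adjusted p = 1.20e-08) and -1.10 ± 0.18 SE for Atf4 (adjusted p = 9.83e-05). In the same YUMM1.7-dHLH cells 5 of the 6 genes driven by Bmal1 and Clock were lower.

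The lines start from different levels. YUMM1.7-EV was higher than YUMM2.1-EV in 20 of 36 genes and lower in 1, while 15.3% of the 16619 genes tested were higher and 16.5% lower. Nupr1 stood at 26.3 and 26.8 CPM beside 1.99 and 4.85 CPM (log2 fold change 2.998 ± 0.26 SE, adjusted p = 3.90e-10), Slc1a5 at 66.1 and 60.02 CPM beside 5.65 and 11.4 CPM, Chac1 at 26.1 and 25.5 CPM beside 6.39 and 7.34 CPM, Cth at 3.83 and 4.31 CPM beside 0.747 and 1.08 CPM and Eif4ebp1 at 242 and 242 CPM beside 76.7 and 102 CPM. In these 5 genes the lines did not overlap. The gene that was lower was Aldh1l2, at 20.6 and 26.8 CPM beside 83.7 and 78.5 CPM (log2 fold change -1.78 ± 0.13 SE, adjusted p = 3.85e-12). B16-F10 Ctrl was higher than YUMM2.1-EV in 28 and lower in 2, Slc6a9 and Psat1, while 21.2% of the 16619 genes tested were higher and 25.6% lower. Here Trib3 stood at 78.6 and 72.9 CPM beside 12.04 and 20.2 CPM (log2 fold change 2.25 ± 0.20 SE, adjusted p = 2.22e-10), Chac1 at 63.6 and 58.4 CPM, Cth at 10.7 and 12.5 CPM, Nupr1 at 27.5 and 28.1 CPM, Slc1a5 at 72.1 and 64.2 CPM and Slc7a1 at 374 and 372 CPM beside 71.4 and 77.6 CPM. Line, vector and culture cannot be told apart in the comparison with B16-F10.

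Loss of Bmal1 in B16-F10 went with lower fitted values throughout the list, though the libraries of some genes overlapped. All 36 genes had a negative log2 fold change in Bmal1 KO against Ctrl, with a median of -0.76 against -0.01 over all genes tested, and 4 were called lower and 0 higher, while 0.22% of the 14556 genes tested were higher and 0.22% lower. Nupr1 fell from 27.5 and 28.1 CPM to 5.098 and 3.31 CPM, a 6.62-fold drop (log2 fold change -2.73 ± 0.29 SE, adjusted p = 0.0365). Atf5 fell from 215 and 220.3 CPM to 39.8 and 56.8 CPM (log2 fold change -2.18 ± 0.23 SE, adjusted p = 0.0365) and Aldh1l2 from 89.5 and 91.5 CPM to 27.9 and 22.6 CPM (log2 fold change -1.85 ± 0.19 SE, adjusted p = 0.0357). Trib3 fell from 78.6 and 72.9 CPM to 22.6 and 24.3 CPM (log2 fold change -1.70 ± 0.17 SE, adjusted p = 0.0357). In these 4 genes both KO libraries lay far below both Ctrl libraries. In Shmt2 they overlapped, at 211 and 197 CPM in Ctrl and 128 and 206 CPM in KO. The highest Gars value of all 40 libraries, 383 CPM, was in KO 2.

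Most other genes fell short of the threshold in B16-F10 over all genes. Atf4 was 493 and 513 CPM in Ctrl and 270.0 and 303 CPM in KO (log2 fold change -0.82 ± 0.17 SE, adjusted p = 0.161), Chac1 63.6 and 58.4 CPM and 24.9 and 18.4 CPM (log2 fold change -1.501 ± 0.22 SE, adjusted p = 0.0903), and Asns 167 and 170.4 CPM and 84.5 and 69.5 CPM (log2 fold change -1.14 ± 0.18 SE, adjusted p = 0.105). The medians by role were -0.83 for the transcription factors, -1.07 for feedback and signalling, -0.71 for the serine and one-carbon enzymes, -0.74 for the transporters and -0.29 for the tRNA synthetases. An unadjusted p under 0.05 was found for 25 of 36, DESeq2 called 11 and a single fit of all 40 libraries 24. The shares over all genes under these settings are not given here. The count was 2 without Ctrl 1, 0 without Ctrl 2, 28 without KO 1 and 30 without KO 2, and the KO libraries were the furthest apart of all duplicates (chi-square over degrees of freedom 96.5, against 2.68 in the closest pair). Of 16 other ATF4 targets tested, Pck2, a mitochondrial enzyme of the gluconeogenic pathway, was lower (log2 fold change -1.74) and the median was -1.08. Of the chaperones 0 of 14 were called (3 at an unadjusted p under 0.05, 0 by DESeq2), with a median of 0.21.

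The Myh9 hairpins were put into the YUMM2.1 EV, WT and dHLH cells, and EV cells with shNC stood apart from EV cells without a hairpin in both directions. In EV shNC Atf4 was 376 and 395 CPM, beside 280.3 and 358 CPM in YUMM2.1-EV, Trib3 was 35.4 and 38.02 CPM beside 12.04 and 20.2 CPM, and Nupr1 was 10.7 and 10.8 CPM beside 1.99 and 4.85 CPM. Atf5 was lower, at 71.8 and 80.1 CPM beside 90.7 and 143 CPM, as was Cebpb as labelled, at 4.94 and 5.496 CPM beside 6.06 and 8.74 CPM. With the doubtful pair exchanged, YUMM2.1-EV would be at 90.7 and 110 CPM for Atf5 and 6.06 and 5.39 CPM for Cebpb. In that case Cebpb would overlap between the groups. Hairpin, puromycin and experiment cannot be told apart in these values, so no test was made. Within the hairpin set each comparison below has its own shNC or EV control, and those with the same control share its 2 libraries.

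WT and dHLH both went with higher levels when cells carried shNC. WT shNC was higher than EV shNC in 20 of 36 genes and lower in 0, while 11.7% of the 14848 genes tested were higher and 10.6% lower, with a median of 0.41 against 0.02. dHLH shNC was higher in 25 of 36 and lower in 0, while 13.9% of the 14848 genes tested were higher and 12.5% lower, with a median of 0.64 against 0.02. The EV shNC libraries are the same in both. Atf4 was 376 and 395 CPM in EV shNC, 558 and 643 CPM in WT shNC (log2 fold change 0.64 ± 0.13 SE, adjusted p = 0.00175) and 642 and 670.1 CPM in dHLH shNC (log2 fold change 0.77 ± 0.13 SE, adjusted p = 2.56e-04). Nupr1 was 10.7 and 10.8 CPM, 75.1 and 70.6 CPM (log2 fold change 2.76 ± 0.14 SE, adjusted p = 3.77e-10) and 83.03 and 82.9 CPM (log2 fold change 2.95 ± 0.14 SE, adjusted p = 5.30e-11). Atf5 was 71.8 and 80.1 CPM, 186 and 221 CPM (log2 fold change 1.43 ± 0.15 SE, adjusted p = 2.33e-06) and 232 and 281 CPM (log2 fold change 1.76 ± 0.15 SE, adjusted p = 1.03e-07). No EV shNC library reached the level of a WT or dHLH library in these 3 genes. Without the library EV shNC 2 the count for WT was 13.

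Downstream genes rose as well in the shNC cells. Trib3 was 35.4 and 38.02 CPM in EV, 70.04 and 93.7 CPM in WT (log2 fold change 1.16 ± 0.14 SE, adjusted p = 9.15e-06) and 119 and 114 CPM in dHLH (log2 fold change 1.67 ± 0.14 SE, adjusted p = 6.73e-08). Chac1 was 15.1 and 15.7 CPM, 39.2 and 30.7 CPM and 45.996 and 39.1 CPM, rises of 1.18 and 1.48 on the log2 scale. Cth was 3.08 and 4.37 CPM, 11.8 and 13.1 CPM and 18.1 and 25.5 CPM, rises of 1.73 and 2.53. In all 3 genes EV was the lowest in both libraries. Sesn2 was 15.9 and 12.2 CPM in EV and 25.8 and 35.2 CPM in WT (log2 fold change 1.13 ± 0.24 SE, adjusted p = 0.00286), and Slc1a5 was 16.4 and 12.2 CPM in EV and 36.3 and 40.2 CPM in dHLH (log2 fold change 1.42 ± 0.21 SE, adjusted p = 4.83e-05). Ddit3 was called with dHLH (log2 fold change 0.96) and had 0.25 with WT, which was not called. Asns was not called in either (log2 fold change 0.42 ± 0.15 SE, adjusted p = 0.0573 for WT, log2 fold change 0.34 ± 0.15 SE, adjusted p = 0.107 for dHLH). Of the tRNA synthetases 4 of 9 rose with WT and 5 of 9 with dHLH, Nars, Sars and Yars in both. Eif2ak3 fell by 1.28 with WT and 1.26 with dHLH, and Eif2ak4, the eIF2 kinase GCN2 that senses uncharged tRNA, rose by 0.97 and 0.67. Of the 14 chaperones and related genes, 4 fell with WT and 5 with dHLH and 0 rose, with medians of -0.25 and -0.17. Sox10 was 330.0 and 334 CPM in EV shNC, 98.7 and 99.9 CPM in WT shNC and 22.7 and 26.1 CPM in dHLH shNC, and its part in these differences was not tested.

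**Figure D4:**
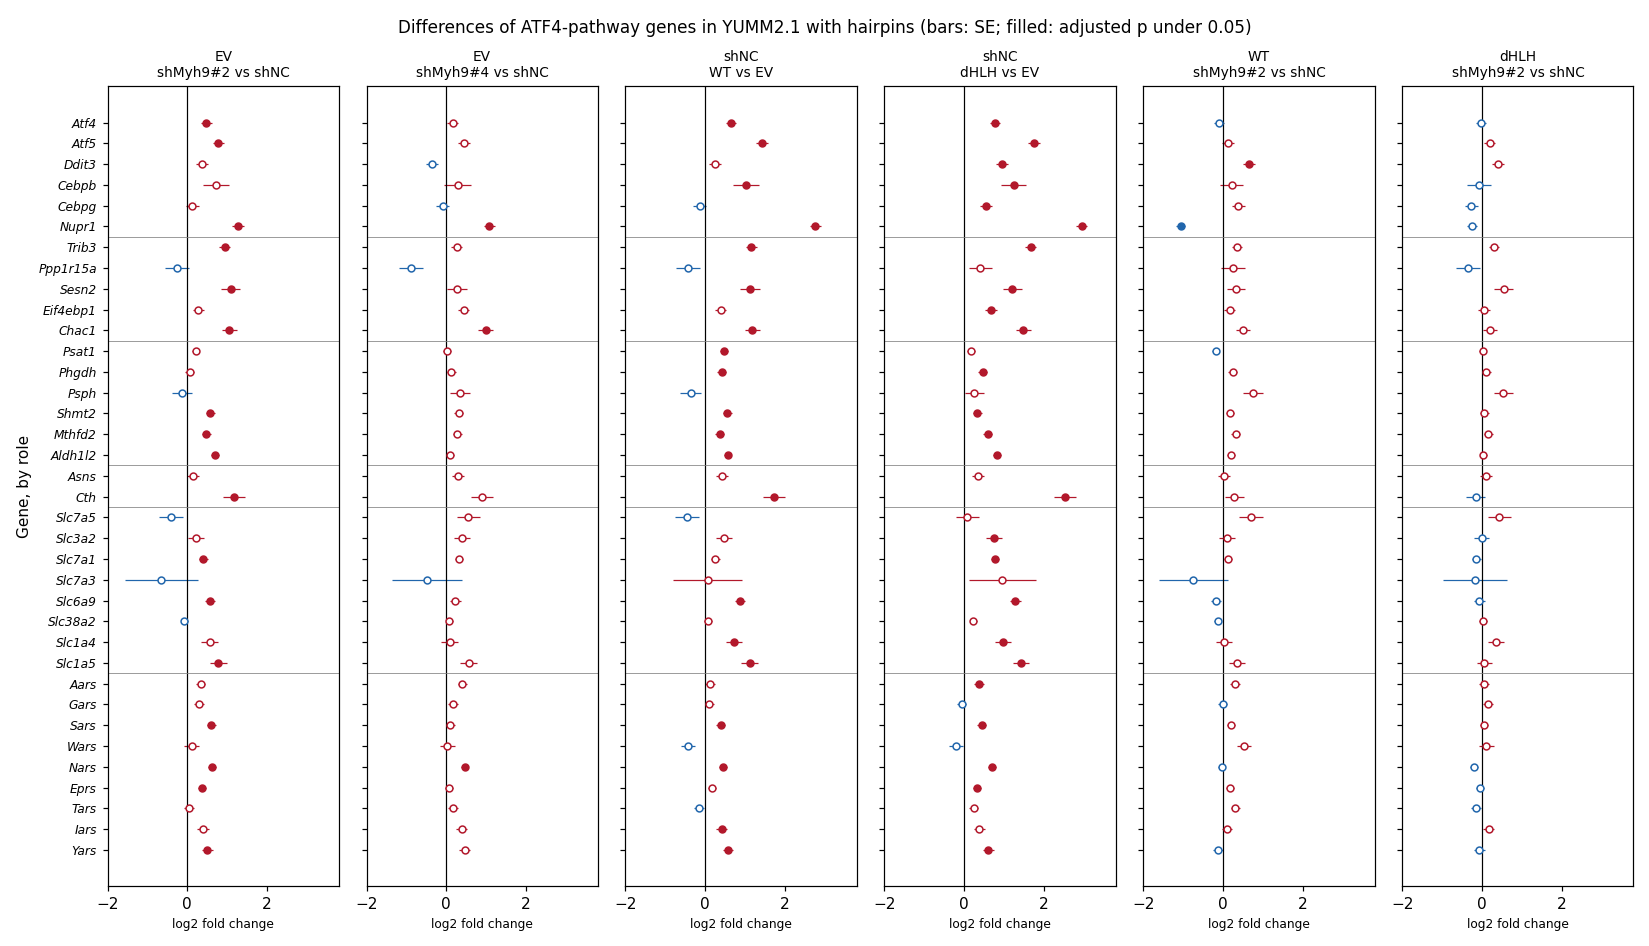
Log2 fold change ± SE of each gene in 6 comparisons of the hairpin set (panels: shMyh9#2 and shMyh9#4 in EV cells, WT and dHLH with shNC against EV shNC, shMyh9#2 in WT and in dHLH cells). Red is positive, blue negative and filled symbols have an adjusted p under 0.05. Filled symbols number 17 for shMyh9#2 in EV cells and 0 for shMyh9#2 in dHLH cells.

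Knockdown of Myh9 in EV cells also went with higher levels. With shMyh9#2, 17 of 36 genes were higher than with shNC and 0 lower, while 4.2% of the 14848 genes tested were higher and 2.46% lower, with a median of 0.40 against 0.01. Atf4 was 571 and 501 CPM, against 376 and 395 CPM (log2 fold change 0.48 ± 0.13 SE, adjusted p = 0.0363). Trib3 was 70.5 and 70.2 CPM, against 35.4 and 38.02 CPM (log2 fold change 0.94 ± 0.14 SE, adjusted p = 3.17e-04), Nupr1 25.7 and 26.2 CPM, against 10.7 and 10.8 CPM (log2 fold change 1.28 ± 0.15 SE, adjusted p = 2.82e-05), and Chac1 30.1 and 33.5 CPM, against 15.1 and 15.7 CPM (log2 fold change 1.05 ± 0.19 SE, adjusted p = 0.00221). Each hairpin library lay above each control library. Sesn2 rose to 28.6 and 30.98 CPM, Cth to 8.04 and 8.87 CPM and Atf5 to 141 and 120.1 CPM, log2 fold changes of 1.09, 1.18 and 0.78. The other genes that rose were Slc1a5, Aldh1l2, Nars, Sars, Shmt2, Slc6a9, Yars, Mthfd2, Slc7a1 and Eprs. The count was between 7 and 9 with any 1 of the 4 libraries left out. Sox10 was 192 and 181 CPM with shMyh9#2 and 330.0 and 334 CPM with shNC (log2 fold change -0.83 ± 0.11 SE, adjusted p = 7.59e-05), and its part was not tested.

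The hairpin with the smaller fitted drop of Myh9 gave fewer calls in EV cells. With shMyh9#4, 3 of 36 genes were higher and 0 lower, while 1.45% of the 14848 genes tested were higher and 0.256% lower, with a median of 0.27 against 0.00. Nupr1 was 19.5 and 26.1 CPM (log2 fold change 1.09 ± 0.14 SE, adjusted p = 3.07e-04), Chac1 27.4 and 33.7 CPM (log2 fold change 0.99 ± 0.19 SE, adjusted p = 0.00671) and Nars 564 and 514 CPM (log2 fold change 0.46 ± 0.09 SE, adjusted p = 0.0118). These 3 rose with both hairpins. Atf4, at 419 and 442 CPM, was not called (log2 fold change 0.16 ± 0.13 SE, adjusted p = 0.773), nor was Trib3, at 44.9 and 43.3 CPM (log2 fold change 0.26 ± 0.14 SE, adjusted p = 0.550). Without EV shNC 2 the count was 1.

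In WT and dHLH cells few of these genes were called with shMyh9#2, and the shares of all genes called were low as well. In WT cells 1 of 36 was higher and 1 lower (2.35% and 2.41% of all genes tested). Ddit3 rose from 71.4 and 85.7 CPM to 131 and 117 CPM (log2 fold change 0.65 ± 0.15 SE, adjusted p = 0.0169), and Nupr1 fell from 75.1 and 70.6 CPM to 36.4 and 33.4 CPM (log2 fold change -1.07 ± 0.12 SE, adjusted p = 3.71e-05). Ddit3 was not called without WT shMyh9#2 1. Trib3, at 109 and 101 CPM against 70.04 and 93.7 CPM, was not called (log2 fold change 0.35 ± 0.13 SE, adjusted p = 0.149). In dHLH cells edgeR called 0 higher and 0 lower of 36 (5 at an unadjusted p under 0.05, 0 by DESeq2), while 0.296% of the 14848 genes tested were higher and 0.263% lower. The shMyh9#2 effect was set against that in EV cells directly. It was lower in WT cells for 4 of 36 genes and higher for 0 (3.43% and 1.75% of all genes tested), and lower in dHLH cells for 3 of 36 and higher for 0 (2.2% and 1.1% of all genes tested). Nupr1, Nars and Aldh1l2 were called in both, with differences of -2.34, -0.65 and -0.50 for WT and -1.52, -0.82 and -0.66 for dHLH on the log2 scale. Slc6a9 was the further gene for WT (-0.75). Both comparisons use the same 4 EV libraries. The count for WT was 2 without any 1 of these 4 libraries, without WT shNC 2 or without either WT shMyh9#2 library, and that for dHLH was 8 without dHLH shMyh9#2 1.

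shMyh9#4 gave a mixed picture in these cells. In WT cells edgeR called 0 of 36 higher and 0 lower (11 at an unadjusted p under 0.05, 7 by DESeq2), while 0.0876% of the 14848 genes tested were higher and 0.148% lower. In dHLH cells 3 of 36 were higher and 4 lower, while 6.28% of the 14848 genes tested were higher and 8.86% lower. Atf5 rose from 232 and 281 CPM to 358 and 439 CPM (log2 fold change 0.66 ± 0.14 SE, adjusted p = 0.00655), with Mthfd2 (log2 fold change 0.41) and Eprs (0.33). Slc3a2 fell from 546 and 495 CPM to 317 and 210.2 CPM (log2 fold change -0.97 ± 0.20 SE, adjusted p = 0.00522) and Cth from 18.1 and 25.5 CPM to 11.3 and 9.04 CPM (log2 fold change -1.08 ± 0.26 SE, adjusted p = 0.0102). Eif4ebp1 went from 258 and 243 CPM to 175 and 143 CPM and Phgdh from 200.2 and 208 CPM to 148 and 140.1 CPM, both called lower. The library dHLH shMyh9#4 1 is the shallowest of the 40. The count was 9 without it, 0 without dHLH shMyh9#4 2, 1 without dHLH shNC 1 and 4 without dHLH shNC 2.

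**Figure D5:**
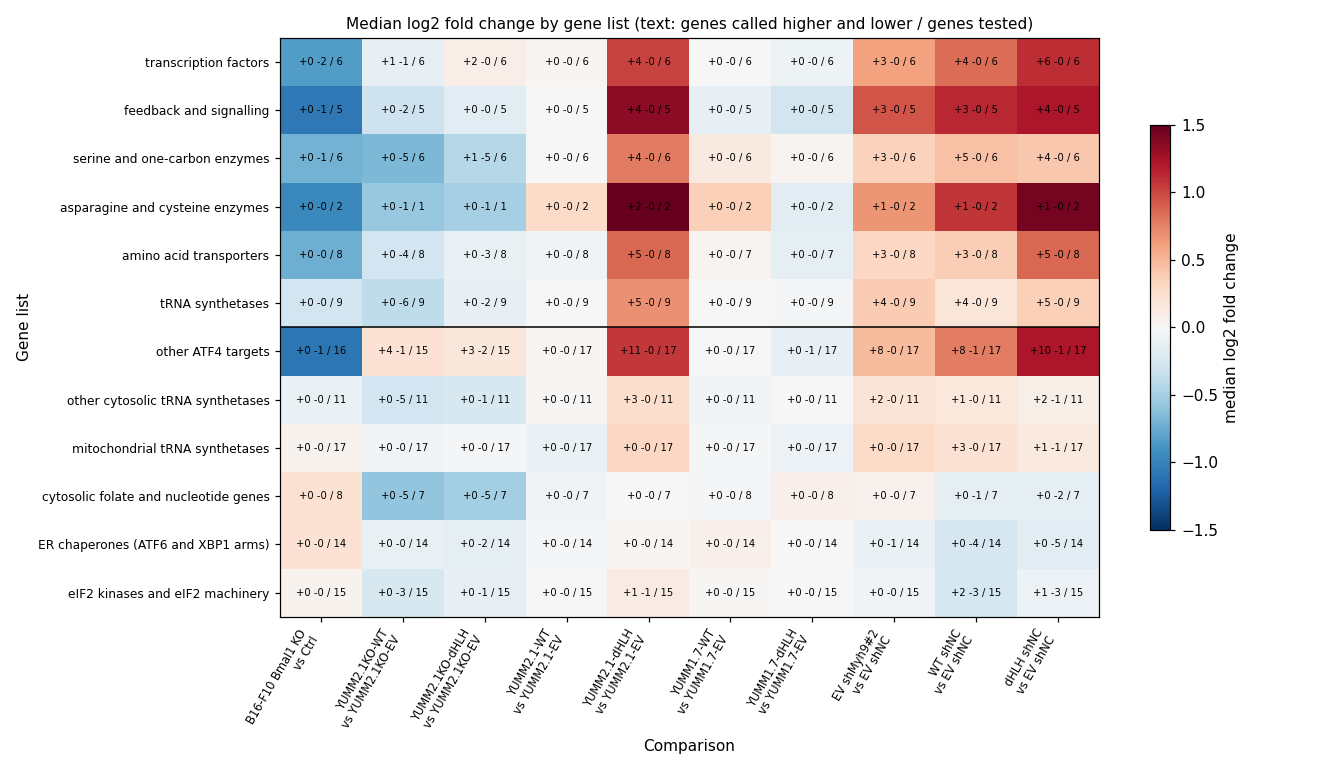
Median log2 fold change of 12 gene lists (rows, by role and pathway) in 10 comparisons (columns), with the number of genes called higher and lower in each cell. In the YUMM2.1-dHLH column the feedback genes have a median of 1.34 and the chaperones of 0.03.

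The wider lists place the 36 genes among their neighbors. The other ATF4 targets had medians of 1.06 in YUMM2.1-dHLH, 0.77 in WT shNC, 1.21 in dHLH shNC and 0.47 with shMyh9#2 in EV cells, each against its control. In the same order 11, 8, 10 and 8 of 17 rose and 0, 1, 1 and 0 fell. In YUMM2.1KO-WT their median was 0.21, while that of the 36 genes was -0.34. The 11 other cytosolic tRNA synthetases, 0 of 6 of which held TGATGNAA where a promoter was matched, rose in 3 cases in YUMM2.1-dHLH (Lars, Cars and Rars) and fell in 5 in YUMM2.1KO-WT (Mars, Vars, Rars, Cars and Lars). The 15 eIF2 kinases and subunits had medians of 0.13 in YUMM2.1-dHLH, with Eif2s2 higher and Eif2ak3 lower, and -0.24 in YUMM2.1KO-WT, with Eif2b3, Eif2s1 and Eif2s2 lower.

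Some values carry a limit of the counting. The 3′ end of Phgdh matches those of 10 annotated processed pseudogenes, that of Iars 1, and Aars shares its 3′ end with Exosc6, so reads of these genes may be divided. The strand setting of the counting was not given in the sources used here, and 19 of the 36 genes overlap another annotated gene, among them Ddit3, Atf5, Psph, Slc7a5 and Cth.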

How the data were processed

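The series holds QuantSeq 3′ mRNA libraries, which tag the 3′ end of transcripts, so counts do not scale with transcript length. The authors aligned reads to mm10 with bowtie2 and estimated counts per Ensembl gene with RSEM, and the deposited expected counts are rounded to whole numbers. The submitters' processing notes name RSEM 1.2.3. Columns of the series that went unused number 0. Symbols were found for 51596 of 51789 identifiers (99.63%) in the GENCODE annotation of GRCm38. The study's own supplementary tables served only to match column names to libraries.

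Each comparison was tested with edgeR 4.0.16 (R 4.3.3, limma 3.58.1), quasi-likelihood, TMM scaling, filterByExpr at 10 counts and Benjamini-Hochberg adjustment over all genes tested. Without a hairpin, each fit held the groups of 1 background, the hairpin set had its own fit, and comparisons across backgrounds used all 40 libraries. Alternatives were DESeq2 1.42.0 (size factors and Wald test), no filter, the replicate number as a block, other sets of libraries, exchanged labels and 54 refits with 1 library left out. Pairing was read from the data: in YUMM2.1 without hairpin, libraries of the same number, as labelled, deviated together in all 3 pairs of groups (correlations 0.181 to 0.393). In the other sets this did not hold. For the alternatives above and for counts at an unadjusted p, the share over all genes is mostly not given beside the count. An NA from DESeq2 stayed NA. The edgeR step was tested on simulated counts. Values in every library were given, per comparison, for up to 6 called genes of the list with the largest absolute log2 fold change and a mean of at least 10 counts, and for Atf4, Asns, Ddit3, Trib3 and Chac1 where the groups changed. The 36 genes and all lists were chosen with earlier results of these data known. Promoters were read from RefSeq sequences of GRCm38.p6.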

Additional observations from a re-analysis of the deposited data

Results flagged for a closer look

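In 4 comparisons the effect of a treatment on the ATF4 genes differed between backgrounds by edgeR's quasi-likelihood test of the difference itself, at an adjusted p under 0.05. The dHLH effect was higher in YUMM2.1 than in its Bmal1-null clone for 27 genes (5% of all genes tested). It was lower in YUMM1.7 than in YUMM2.1 for 25 (5.38%). The shMyh9#2 effect was lower in WT cells than in EV cells for 4 genes (3.43% of all genes tested) and lower in dHLH cells than in EV cells for 3 (2.2%). With 1 library left out these counts ran from 2 to 4 and from 2 to 8. With 2 libraries a group, no library was examined as standing apart within its group.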

How the results depend on the processing

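DESeq2 size factors and the exchanged YUMM2.1 labels kept each count within 1.5-fold. B16-F10 Bmal1 KO called 12 without a filter, 10 with a replicate block, 11 by DESeq2 and 24 in a fit of all 40 libraries, which called 8 for YUMM2.1KO-WT, 1 for YUMM2.1KO-dHLH (1 higher and 0 lower, from 3 higher and 11 lower) and 0 between them. That last comparison called 5 without a filter, 5 with the block and 3 by DESeq2. Without a filter, YUMM1.7-WT called 1 (DESeq2 1), YUMM1.7-dHLH 3, EV shMyh9#4 7, WT shMyh9#4 5 (block 1, DESeq2 7), dHLH shMyh9#4 13 (DESeq2 12, of which 7 higher and 5 lower, from 3 higher and 4 lower) and the shMyh9#2 effect of dHLH against EV 9 (DESeq2 6). That of WT against EV called 8 by DESeq2, and YUMM2.1KO-EV against YUMM2.1-EV called 0 with those groups alone. The cause of these shifts was not tested. In YUMM2.1 without hairpin, where the library numbers paired only on the labels as given, the replicate block called 29 for dHLH and changed no other call against EV. The other sets shared only a number, and no further block count moved by over 1.5-fold.

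With 1 library left out, counts ran from 0 to 30 in B16-F10 Bmal1 KO, 9 to 14 for YUMM2.1KO-WT, 2 to 15 for YUMM2.1KO-dHLH, 0 to 2 between them, 10 to 23 for YUMM2.1-dHLH, 7 to 9 for EV shMyh9#2, 1 to 3 for EV shMyh9#4, 13 to 16 for WT shNC, 19 to 21 for dHLH shNC, 1 to 2 for WT shMyh9#2, 0 to 9 for dHLH shMyh9#4, 15 to 18 for YUMM1.7-EV and 28 to 29 for B16-F10 Ctrl against YUMM2.1-EV, and 0 to 3 for YUMM2.1KO-EV. The differences of dHLH effects ran from 22 to 28 and 20 to 25, those of shMyh9#2 effects from 2 to 4 and 2 to 8. The other comparisons gave 0 each time. A left-out group's lone library is assumed to vary like the others. Single named genes kept their side of the threshold 1313 times and lost it 61 times under other settings, and kept it 928 times and lost it 304 times with a library left out. Genes under about 1 CPM, such as Slc7a3 and Cth in some groups, rest on too few reads for small differences to be detectable.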
